A study of Gallus gallus with 30 samples.

Results

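The 100 chicken genes described here had their highest signals at HH4 to HH9, on the probe set chosen for each. These stages run from the full primitive streak through head process and head fold to the first somites. The genes were chosen from these data, out of 13008 genes with 27166 probe sets that carry a single gene symbol. For each probe set, signals below 40 were set to 40, converted to log2 and averaged per stage. The score was the mean of the HH4, HH6, HH8 and HH9 stage means minus the highest stage mean among HH1, HH2 and HH14 to HH38. The best probe set of each gene was kept, and the 100 highest scores were taken. HH11 did not enter the score.

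The arrays hold RNA of whole wild type embryos of Gallus gallus, Nera line, sex mixed, from eggs incubated at 37.5 degrees, with yolk and amnion taken off. They cover 15 Hamburger-Hamilton (HH) stages. The blastoderm stages HH1 and HH2 were followed by HH4, HH6, HH8 and HH9, then HH11, then HH14, HH16, HH19 and HH24, then HH27, and last HH32, HH34 and HH38. Each stage had 2 pools of embryos, which the labels call biological replicates, each on its own Affymetrix Chicken Genome Array, 30 arrays in all. The sources used here do not give the number of embryos in a pool. No group carries a transgene or a treatment. HH4 to HH9 are called the window below (8 arrays), and HH1, HH2 and HH14 to HH38 the outer stages (20 arrays). On every array the mean signal, trimmed by 2% at each end, was 500, so a signal is a share of the array's total and not an amount per embryo. Background is the 95th percentile of the 689 probe sets for other organisms on the array, which ranged from 25.4 to 47.2. The 3' to 5' ratio of the actin control probe sets, a measure of RNA quality, was 1.54 to 2.01 in the window, 1.64 to 1.98 on the outer arrays other than HH38, and 2.48 to 2.99 at HH38.

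At the first of these stages the chick is a flat sheet, and by the later ones it has a head fold and somites. Cells move in through the primitive streak, the neural plate forms, and around the embryo proper the endoderm of the area opaca spreads over the yolk. That endoderm becomes the yolk sac epithelium, which takes up yolk proteins and lipids through endocytic receptors on a microvillous surface, digests them in lysosomes, and exports lipid to the embryo as lipoproteins. Many of its genes are used again later by liver, intestine and kidney. The streak and the tailbud that follows it express a different set of genes, among them the caudal and mesogenin factors.

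The members included many genes of the first kind and a few of the second. Of 31 genes on a list for yolk sac endoderm and yolk uptake, 27 were measured and 12 were members: APOA1, APOA4, APOA5, APOB, TTR, MTTP, CUBN, AMN, LRP2, HNF4A, VIL1 and FABP1. Of 24 genes on a list for the primitive streak and nascent mesoderm, 19 were measured and 3 were members: MSGN1, CDX1 and CDX4. TAL1 of the blood island list and CLDN5 of the tight junction list were members too. HNF4A was also on the list for definitive endoderm and foregut, and MSGN1 on the presomitic list. Of all 12146 genes measured, 100 were members. Lists for the organizer, the neural plate, the heart field, the non-neural ectoderm, the extraembryonic ectoderm, and FGF, WNT and BMP feedback held no member. The members fell into 15 genes of lipid and lipoprotein handling, 9 uptake receptors and carrier proteins, 15 brush border proteins, peptidases and transporters, 16 metabolic enzymes, 9 regulators of transcription and RNA, 10 signals, secreted or surface proteins, and 26 other genes. The uptake and carrier group also held C4A, a complement protein, which is neither. These lists and groups were written with results of these data known.

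The score ranged from 1.26 to 4.25 on the log2 scale with a median of 1.75, which is a window level 2.40 to 19.0 times the highest outer stage, median 3.37. Where the highest outer stage lay at the floor of 40, this fold is a lower bound. At the edge of the set, FBLN7 at rank 100 and FBLN1 at rank 101 both scored 1.26, so the limit of 100 separates nothing. CDX1 at rank 98 scored 1.29 and APOA4 at rank 99 1.27. In 95 of the 100 members every window array lay above every outer array, which the choice itself produces, and 1.95% of all 29600 tested probe sets did so. The exceptions were AMN, APOA4, SLC30A2, AGRP and RBP, which began low at HH4 or ended low at HH9, or, for SLC30A2, had 1 window array at 26.7.

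**Figure D1:**
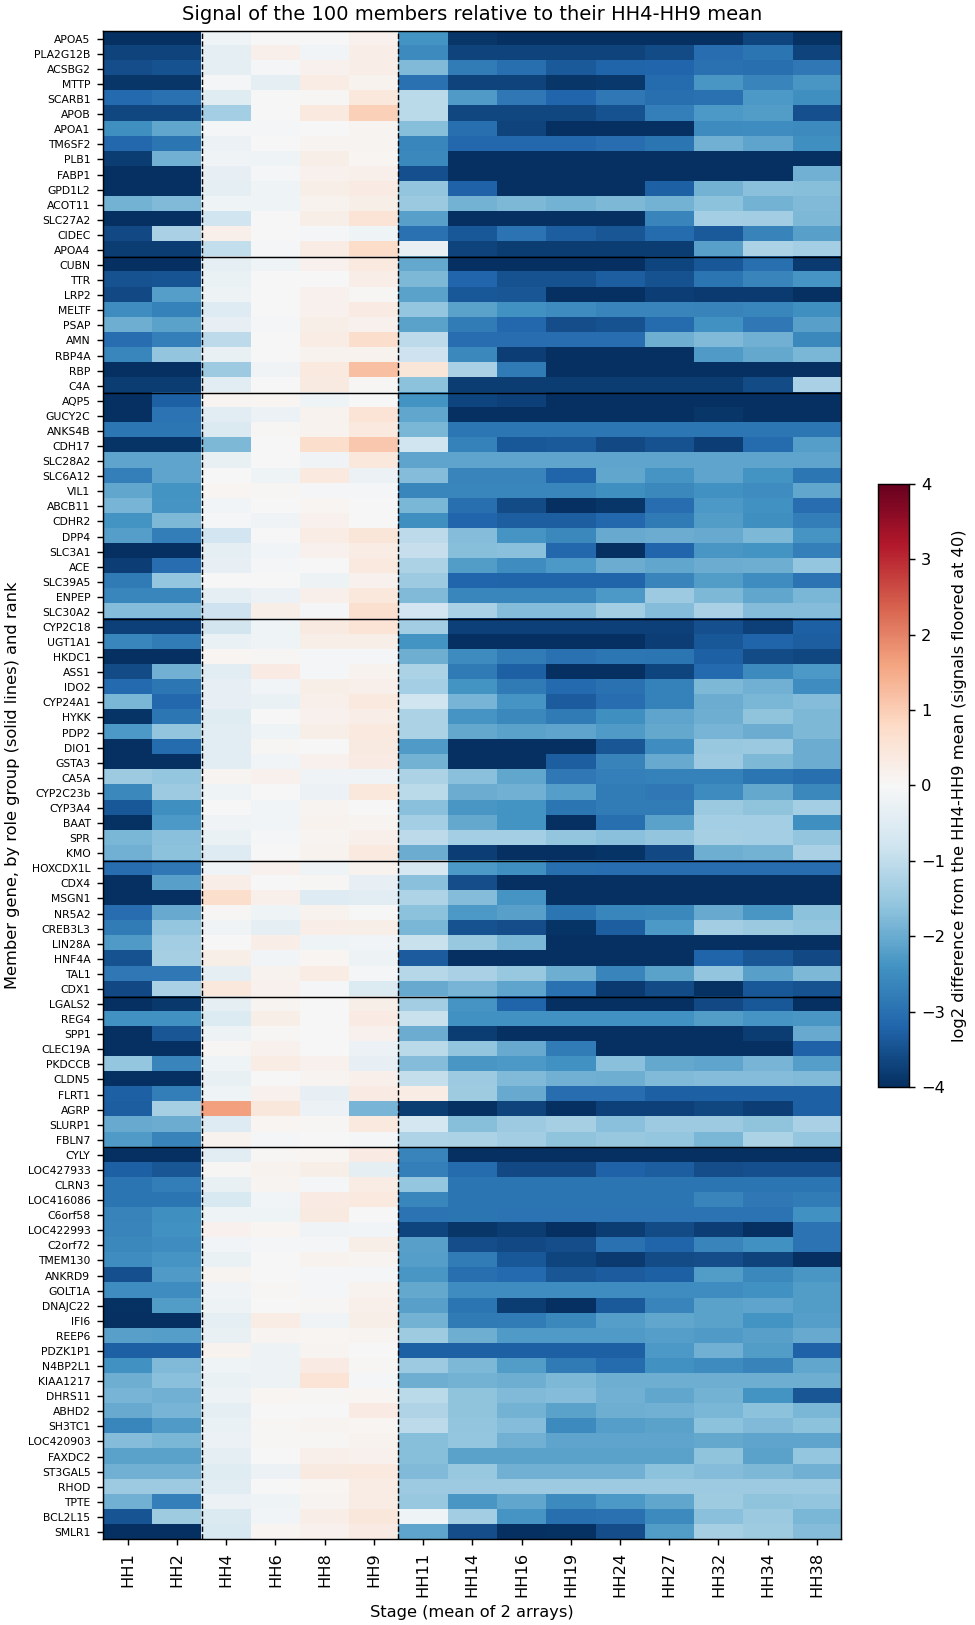
Signal of each of the 100 members (rows, grouped by role and ordered by score within a group) at each of the 15 stages (columns, mean of 2 arrays), as the log2 difference from the gene's mean over HH4 to HH9, with signals floored at 40 and colours limited to 4 in either direction. The 4 columns between the dashed lines are pale because they define the reference, HH11 is intermediate, and many lipid genes and enzymes turn a lighter blue again from HH32 on.

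The working name of the set, genes used only from HH4 to HH9, was checked against the array background. Only ANKS4B, SLC28A2 and RHOD were below background on all 20 outer arrays. A further 23 members were above background on 1 to 10 outer arrays, 38 on 11 to 19, and 36 on all 20. The same counts over all probe sets were not worked out. By stage, 56 members were above background on both HH1 arrays, 52 on both HH24 arrays and 70 on both HH38 arrays. Of all tested probe sets 78.1%, 77.4% and 81.7% were, and the choice itself favours low counts at outer stages. The outer stage with the highest signal was HH1 or HH2 for 28 members (HH2 for 23 of them), HH14 or HH16 for 22, HH24 or HH27 for 3, and HH32 to HH38 for 44. ANKS4B, SLC28A2 and RHOD were at the floor at every outer stage and have no highest one. The set is therefore one of genes whose chosen probe set was highest from HH4 to HH9, not of genes silent elsewhere. Other probe sets of some members were highest outside the window, as given below. In these bulk samples, fewer cells of a type and less RNA per cell cannot be told apart.

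**Figure D2:**
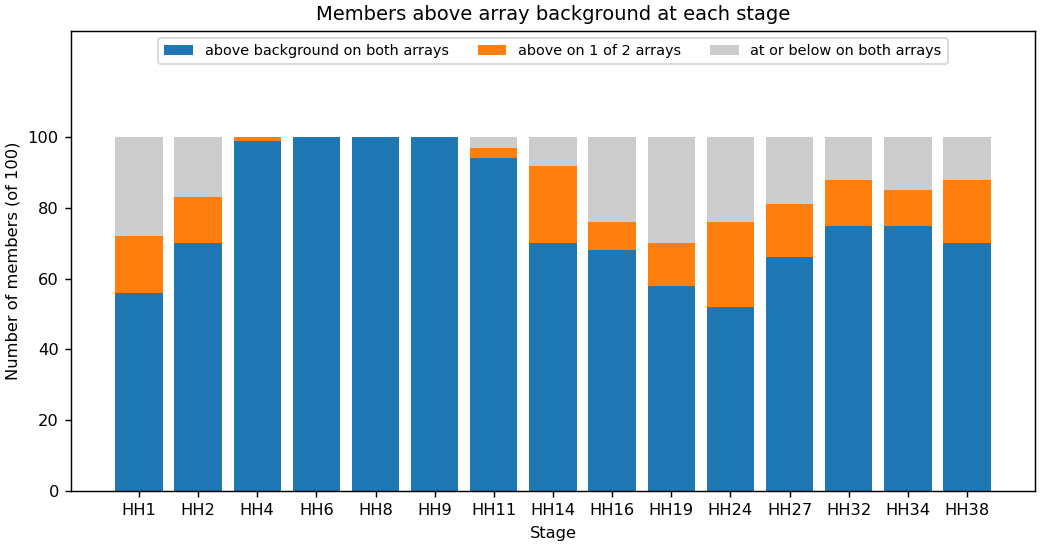
Number of the 100 members above array background on both arrays, on 1 array or on neither array of each stage. On both arrays 56 were above background at HH1, 70 at HH2, 99 at HH4, 100 at HH6, HH8 and HH9, 94 at HH11, 52 at HH24, 75 at HH32 and HH34, and 70 at HH38. Of all tested probe sets, 78.1% were at HH1, 79.8% at HH9, 77.4% at HH24, 83.2% at HH32 and 81.7% at HH38.

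Among the lipid genes, APOA5, an apolipoprotein that promotes clearance of plasma triglyceride in mammals, had window signals from 902 to 1276 with a median of 1090. Its 20 outer arrays lay between 13.0 and 105 with a median of 45.7, and the HH11 arrays gave 232 and 186. All window arrays of APOA5 were thus high, and HH11 stood between the window and the rest. APOA1, the main protein of high density lipoprotein, read 20666 to 28102 (median 22927) in the window and 717 to 6285 (median 3588) outside it. FABP1, a cytosolic fatty acid binding protein of liver and gut, read 1245 to 1948 in the window, 3.45 to 470 outside it, and 131 and 146 at HH11. Its outer signals above background came mostly from HH27 on, with 372 and 470 at HH38. MTTP, the transfer protein that loads lipid onto apolipoprotein B, ranged from 331 to 805 in the window and from 4.49 to 122 outside it. PLA2G12B and TM6SF2, both needed for full lipidation of secreted lipoproteins in mouse, had window medians of 555 and 361 and outer medians of 24.5 and 36.6. ACSBG2, an acyl-CoA synthetase, was above background on every array, at 4386 to 6958 in the window and 441 to 864 outside it. SCARB1, the receptor for high density lipoprotein, was likewise above background on every array, with outer signals of 76.8 to 212 against 597 to 1266 in the window. CIDEC, a lipid droplet protein, was already at 519 and 543 at HH2, compared with 88.0 and 132 at HH1.

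All 3 proteins of the cubilin, amnionless and megalin uptake complex were members. CUBN, the large peripheral receptor of that complex, had window signals of 3646 to 6355 (median 4739) and outer signals of 51.6 to 610 (median 242). LRP2, or megalin, had 2682 to 3759 in the window and 144 to 694 outside it. AMN, the membrane anchor of cubilin, read 155 to 662 in the window, and 1 of its HH27 arrays at 178 exceeded its lowest window array. CUBN and LRP2 were above background on every array and AMN on 9 of the 20 outer arrays. Of the carriers, RBP4A, a retinol binding protein, read 23422 to 32725 in the window and reached 10580 outside it. RBP, the riboflavin binding protein of egg and plasma, spanned 672 to 5798 in the window. PSAP, the precursor of the lysosomal saposins, read 1864 to 3302 in the window and 175 to 704 outside it. A brighter PSAP probe set had stage means of 19792 at HH4, 25811 at HH8 and 12065 at HH38, and scored 0.90. MELTF, an iron binding surface protein, read 1204 to 2477 and 247 to 456.

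The brush border group held VIL1, which bundles actin in microvilli, and ANKS4B and CDHR2, parts of the complex that links neighbouring microvilli. ANKS4B read 188 to 482 in the window and at most 22.2 on any outer array, below background on all of them. CDHR2 had a window median of 384 and an outer median of 57.6, and VIL1 245 and 38.2. CDH17, the cadherin of intestinal epithelium, had a window median of 756 within a wide range of 165 to 1535. The surface peptidases DPP4, ACE and ENPEP had window medians of 2300, 547 and 264, and outer medians of 502, 130 and 38.3. GUCY2C, the guanylyl cyclase receptor of the intestine, read 804 to 1834 in the window and at most 158 outside it. AQP5, a water channel, read 961 to 1186 and at most 127. ABCB11, the bile salt export pump, read 1547 to 3138 in the window and 122 to 653 outside it. Transporters of amino acids (SLC3A1), betaine (SLC6A12), nucleosides (SLC28A2) and zinc (SLC30A2, SLC39A5) were also members, with window medians from 157 for SLC30A2 to 1529 for SLC3A1.

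The enzymes included several known from liver and kidney. GSTA3, a glutathione transferase, read 3371 to 5950 in the window and 5.96 to 1894 outside it, with its lowest signals at HH1. UGT1A1, which glucuronidates bilirubin, read 6260 to 10964 in the window and 107 to 1890 outside it. HKDC1, a hexokinase-like enzyme, read 1644 to 2072 and 21.7 to 341. ASS1, which makes argininosuccinate for arginine synthesis, read 1866 to 3446 and 105 to 730. DIO1, which deiodinates thyroid hormone, had a window median of 1399 and an outer median of 139, and CYP24A1, which breaks down vitamin D, 461 and 110. IDO2 and KMO of tryptophan breakdown had window medians of 344 and 751. CYP2C18, a cytochrome P450 with the RefSeq synonym CYP2C45, had 529 in the window and an outer median of 10.3.

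The regulators were of several kinds. HNF4A, a nuclear receptor of liver, gut and visceral endoderm, read 1215 to 1988 in the window, 604 and 640 at HH2, and 36.7 to 189 on the arrays from HH14 on. NR5A2, another nuclear receptor of endoderm, read 1179 to 2108 in the window and 136 to 470 outside it. CREB3L3, a membrane-bound factor that activates apolipoprotein genes in mouse liver, had medians of 904 and 152. MSGN1, the bHLH factor of presomitic mesoderm, read 1395 to 4031 in the window, 697 and 757 at HH14, and at most 38.9 from HH24 on. CDX4, a caudal factor of the streak and tailbud, read 4544 to 8232 in the window, 1017 and 1896 at HH2, and at most 30.2 from HH24 on. LIN28A, the RNA binding protein that blocks maturation of let-7, read 2810 to 4538 in the window, 815 and 1031 at HH16, and at most 50.4 from HH24 on. These 3 genes faded over the stages after HH11, while HNF4A was low by HH11, at 183 and 129. TAL1, a factor of blood and endothelial precursors, read 211 to 414 in the window and at most 131 outside it. A brighter TAL1 probe set had stage means of 540 at HH8, 240 at HH14 and 176 at HH38, and scored 0.84.

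Signals and surface proteins made a mixed group. AGRP, the peptide antagonist of melanocortin receptors, read 2461 and 2062 at HH4 and fell within the window, as described below. SPP1, osteopontin, read 8080 to 10531 in the window and 366 to 2367 outside it. LGALS2, a galectin, read 4551 to 6979 and 100 to 1222. CLDN5, a tight junction claudin, read 773 to 1208 and 17.6 to 366. The gene with the highest score, CYLY, read 1515 to 2686 in the window, 22.1 to 124 outside it, and 384 and 298 at HH11. Other high scores belonged to LOC427933 with a window median of 537, CLRN3 with 325, LOC416086 with 341, C6orf58 with 291, LOC422993 with 754, C2orf72 with 1410 and TMEM130 with 4064, whose outer medians were 39.6, 23.0, 18.3, 21.7, 58.7, 173 and 362.

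**Figure D3:**
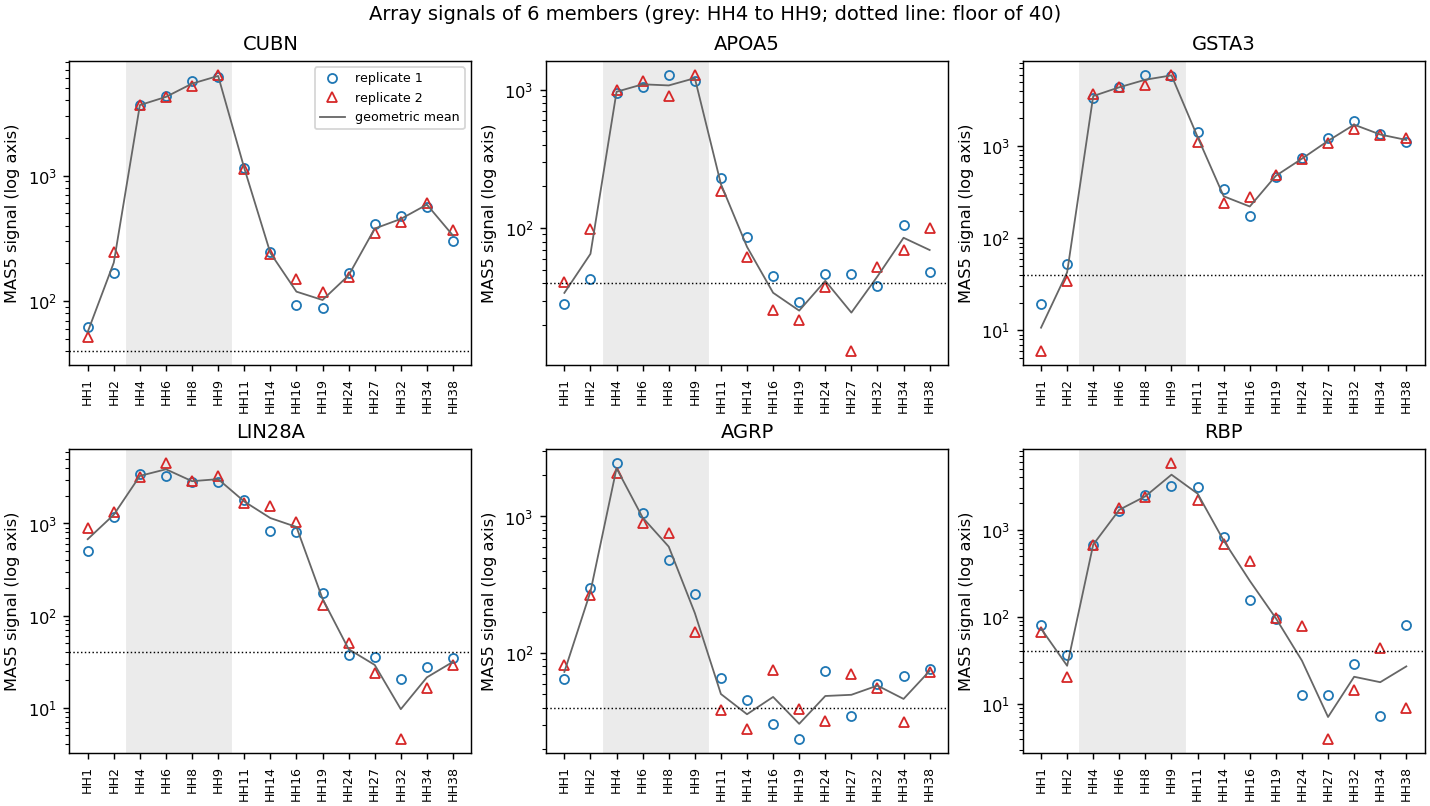
MAS5 signal on a log axis against stage for 6 members, with circles for replicate 1, triangles for replicate 2, a line through the geometric mean and the window in grey. CUBN, APOA5 and GSTA3 jump between HH2 and HH4 and drop at HH11, and GSTA3 climbs again and reaches 1894 on 1 array of HH32. LIN28A declines step by step from HH11 to HH16 and falls steeply from HH16 to HH19. AGRP peaks at HH4, and RBP keeps rising to HH9.

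The rule did not use differences among HH4, HH6, HH8 and HH9, so these could be tested. The mean of HH8 and HH9 was compared with the mean of HH4 and HH6 by limma over all 29600 probe sets, and a change was called at a Benjamini-Hochberg adjusted p below 0.05 and at least 2-fold. Of the 100 members 2 were called, against 1.73% of all probe sets, a share near the background. One was higher and one lower late, against 1.25% and 0.476% of all probe sets. CDH17 rose, from 189 and 165 at HH4 and 663 and 564 at HH6 to 1169 and 848 at HH8 and 1103 and 1535 at HH9, and each later array lay above all 4 earlier ones. Its log2 change was 1.79 ± 0.36 (SE, 2 arrays per stage, limma adjusted p = 0.00234). AGRP fell, from 2461 and 2062 at HH4 and 1068 and 902 at HH6 to 481 and 753 at HH8 and 269 and 144 at HH9, and again the early and late arrays did not overlap. Its log2 change was -2.11 ± 0.34 (SE, limma adjusted p = 0.000314). At an adjusted p below 0.05 without a fold threshold, 9 members passed, 8 higher and 1 lower, against 7.5% of all probe sets and 4.58% for higher ones alone. Beside CDH17, the higher ones were DPP4 with a log2 change of 0.78, CUBN and GPD1L2 with 0.56, MELTF with 0.51, ACSBG2 with 0.44, ABHD2 with 0.36 and SPR, a reductase of tetrahydrobiopterin synthesis, with 0.31. The calls of MELTF, ABHD2, SPR and GPD1L2 were lost in some fits that left out 1 array, with adjusted p up to 0.0961, 0.131, 0.0842 and 0.0603.

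Most of the estimated changes were small and above 0. The estimate was positive in 80 of the 100 members, with a median of 0.30, about the size of the members' median standard error of 0.31, while over all probe sets 50.7% were above 0 and the median was 0.01. The highest window stage was HH4 for 13 members, HH6 for 8, HH8 for 23 and HH9 for 56. The moderated F test over the 4 stages found 8 members that differed, against 5.89% of all probe sets, and 22 at an unadjusted p below 0.05, against 18.2% of all probe sets. The 8 were AGRP, CDH17, CUBN, ACSBG2, DPP4, MELTF, ABHD2 and ASS1. Without HH4 replicate 1 or HH4 replicate 2 this number was 4, and without HH9 replicate 1 it was 5. At the single steps from HH4 to HH6, HH6 to HH8 and HH8 to HH9, limma called 0 members, against 0.324%, 0.189% and 0.176% of all probe sets. At an unadjusted p below 0.05 there were 10, 5 and 2 members at these steps, against 8.33%, 11.1% and 9.55% of all probe sets, so the first count was near the background and the others below it. With signals floored at 40 the steps gave 2 calls, and with the window arrays alone 1.

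These counts depended on how the spread was estimated. The members are dim on many outer arrays, where log2 signals scatter widely, and the median standard error of the members' change was 0.31 with all arrays in the fit, against 0.22 for all probe sets. With signals floored at 40 it was 0.18, against 0.16 for all probe sets, and 6 members were called against 1.15% of all probe sets. With the 8 window arrays fitted alone it was 0.13, against 0.22 for all probe sets, and 6 members were called against 1.06%. In that last fit the members were measured more precisely than most probe sets, and in the fit of all arrays less precisely. Flooring removes scatter below 40, where the choice placed many members on outer arrays. In none of these fits are the members' counts and the shares of all probe sets on like terms. The floored fit and the fit of the window arrays alone, which share the window arrays, called the same 6 genes. These were AGRP lower, and CDH17, APOB, RBP, AMN and APOA4 higher. APOB, the structural protein of very low density lipoprotein, read 235 and 161 at HH4 and 1182 and 802 at HH9, a log2 change from early to late of 1.37. RBP read 672 and 673 at HH4 and 3124 and 5798 at HH9, and its change was 1.59. AMN and APOA4 had changes of 1.02 and 1.04. With all arrays in the fit these 4 genes had limma adjusted p of 0.146, 0.135, 0.364 and 0.139. The F test found 21 members with the floor and 22 with the window arrays alone, against 6.85% and 1.58% of all probe sets, and 13 genes were found both ways.

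The role groups differed in their medians. The median log2 change from HH4 and HH6 to HH8 and HH9 was 0.37 for the lipid group, 0.43 for uptake receptors and carriers, 0.38 for the brush border group and 0.41 for the enzymes. All 9 genes of the uptake and carrier group had a change above 0, though only CUBN and MELTF passed at an adjusted p below 0.05. The median of 0.43 in this group is the value of C4A, which is not an uptake or carrier gene. The median for signals and surface proteins was 0.07. For the regulators it was -0.12, and 6 of the 9 were below 0. MSGN1 read 3946 and 4031 at HH4 and 1628 and 2050 at HH9, with a change of -0.92 ± 0.60 (SE, limma adjusted p = 0.446). CDX1, another caudal factor, read 765 and 915 at HH4 and 475 and 375 at HH9, with a change of -0.60 ± 0.40 (SE, limma adjusted p = 0.458). Neither passed the test. The groups were not tested against each other.

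**Figure D4:**
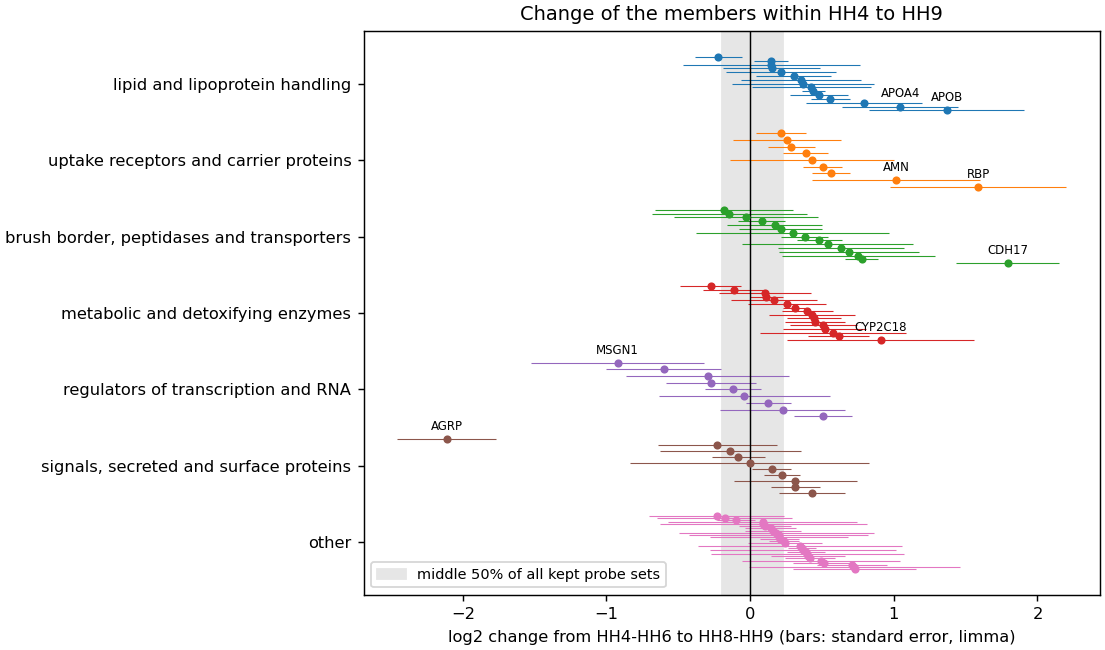
Change from HH4 and HH6 to HH8 and HH9 on the log2 scale (points) with its standard error from limma (bars) for each member, by role group, with the grey band marking the middle 50% of all tested probe sets. Most points lie right of 0, CDH17 at 1.79 and AGRP at -2.11 stand far from it, and the regulators lie mostly to the left.

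HH11, between the first somites and the turning of the embryo, was not part of the score, although HH9 and HH14 on either side were, so its values are given without a test. All 100 members were lower at HH11 than at HH9, 92 of them at least 2-fold, as were 3.17% of all tested probe sets. The median drop was 3.63-fold, or -1.86 on the log2 scale, while the median over all probe sets was 0. At HH11 67 members still lay above their highest outer stage, 14 of them at least 2-fold, and 33 did not. The rule favours a low highest outer stage and the share of all probe sets was not worked out, so this count is a description. The lipid group had the largest median drop of the role groups, 5.82-fold, followed by the other genes with 4.39-fold, the brush border group with 3.70-fold, uptake and carriers with 3.65-fold, enzymes with 3.03-fold, regulators with 2.55-fold and signals with 2.28-fold.

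Relative to their window mean, the members highest at HH11 were RBP, FLRT1, BCL2L15, APOA4 and HOXCDX1L, with log2 differences of 0.48, 0.30, -0.19, -0.30 and -0.68. RBP read 3034 and 2195 at HH11, inside its window range, and 814 and 684 at HH14. FLRT1, a surface protein with leucine-rich repeats, read 527 and 431 at HH11 against 285 to 611 in the window. The lowest were AGRP, LOC422993, FABP1, HNF4A and PDZK1P1. The first 4 had differences of -3.81, -3.67, -3.51 and -3.34, where 1 of the AGRP arrays was at the floor. PDZK1P1 was below the floor on both HH11 arrays, at 14.8 and 24.7, so its -3.26 is a bound set by the floor and its place in this order is not fixed. In all, 5 members were at or below the floor on both HH11 arrays, and their drops are lower bounds. LOC422993, with the RefSeq synonym IFITM1, read 50.7 and 59.8 at HH11 against 534 to 868 in the window. At HH11 74 members were higher in replicate 1 than in replicate 2, with a median difference of 0.16, whereas 49.9% of all probe sets were. At HH8 69 were, with a median of 0.20. The pools of a stage therefore differed slightly in the same direction over most members. The part of this in the drop at HH11, or for HH8 in the mostly positive changes within the window, was not tested.

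Many members came back late in development. In 48 of the 100 the highest stage mean from HH27 to HH38 was at least 2-fold above the lowest from HH14 to HH24, as it was in 22.5% of all tested probe sets. These stages entered the choice through their maximum, so the count is a description. RBP4A went from 413 and 510 at HH19 to 7068 and 9747 at HH38, an 18.1-fold return. In 16 of the 48 the lowest stage lay at the floor of 40, so that the fold is a lower bound. GPD1L2 returned 11.7-fold, FABP1, with its lowest stage at the floor, at least 10.5-fold, GSTA3 7.74-fold and APOA1 5.38-fold. APOA1 read 858 and 717 at HH19 and 4680 and 3721 at HH32, still below its window range. The return was seen in 11 of 15 lipid genes, 10 of 16 enzymes, 6 of 9 uptake and carrier genes, 6 of 15 brush border genes, 4 of 9 regulators, 2 of 10 signals and 9 of 26 other genes. The uptake and carrier genes that returned include C4A, with stage means of 40 at HH14 and 226 at HH38. CDX4, MSGN1, LIN28A and ANKS4B did not return. CUBN rose from 88.7 and 118 at HH19 to 567 and 610 at HH34, a 5.76-fold return, and LRP2 returned 1.43-fold.

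**Figure D5:**
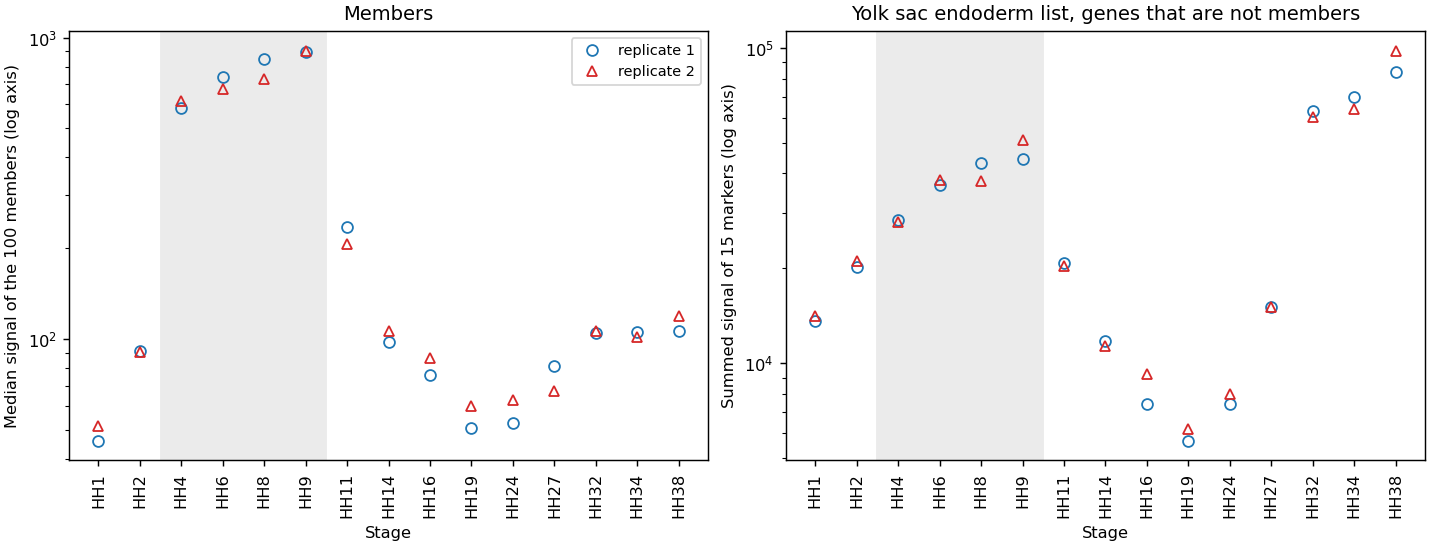
Median signal of the 100 members (left) and summed signal of the 15 measured yolk sac list genes that are not members (right) on each array, on log axes, with circles for replicate 1, triangles for replicate 2 and the window in grey. In the window the sum rests chiefly on CTSB and TF, and from HH6 on also on SERPINA10. Both rise through the window and fall to a low near HH19. The marker sum climbs at HH32 to HH38 above its window level, with ALB its largest part there. The member median does not, which the choice of the members itself produces. A sum and a median are also unlike measures.

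Yolk sac endoderm genes outside the set took several courses. Of the 15 measured list genes that were not members, TF, SERPINA10, FABP2 and AGT had a window mean at least 2-fold above their highest stage among HH1, HH2 and HH14 to HH24. For 6, namely APOH, VTN, DAB2, CTSB, GPLD1 and SOAT1, it was above by less than 2-fold, and for 5, namely APOV1, RBP4, ALB, AFP and SLC34A2, it was not above. ALB, the serum albumin, had stage means of 74.6 to 89.1 in the window and 44512 at HH38. SLC34A2, a phosphate transporter, went from 2926 at HH2 to 580 at HH4 and 331 at HH9. AFP was highest at HH11, at 712. The sum over these 15 genes rests in the window largely on CTSB and TF, and from HH6 on also on SERPINA10. This sum was 13643 to 21082 on the arrays of HH1 and HH2 and 28060 to 51066 in the window. At HH11 it was 20284 and 20860, and from HH14 to HH24 5676 to 11802. At HH27 the sum was 15082 and 15093, and at HH32 to HH38 it was 60626 to 97973, above the window. ALB was its largest part there, with stage means of 22219 at HH32 and 44512 at HH38, followed by TF. The rule leaves genes that are higher late than in the window outside the set. In the window 1 of the 15 genes, RBP4, was below background on all 8 arrays. RBP4 is a separate gene symbol from the member RBP4A, which the list does not name and which was high in the window. The amount of extraembryonic endoderm left on the embryos is not recorded, and its part in the members' courses was not tested. The summed signal of the 12 measured blood island genes other than TAL1 took another course. It was 613 to 1308 at HH1 and HH2, 6742 to 39200 in the window and 95431 to 108488 at HH11. Such a sum can rest on a few bright genes, and GATA2 was below background on both HH11 arrays. The 11 measured extraembryonic ectoderm genes summed to 22656 to 59954 at HH1 and HH2, 36730 to 47916 in the window and 34628 to 36904 at HH11.

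Within the window the same comparison of HH8 and HH9 with HH4 and HH6 gave a frame for the members. Of 27 measured yolk sac genes 3 rose, namely APOH, DAB2 and AGT, none of them a member, and the list's median was 0.34. Of 12146 genes tested, 181 rose and 72 fell, with a median change near 0. FGF8 rose among 19 streak genes, whose median was -0.42, and it is also on the list of 17 presomitic genes, median -0.16. SOX17 fell among 13 definitive endoderm genes, median -0.20. In the 17 heart genes, median 0.67, NKX2-5, MYH15, MYL2 and TNNT2 rose. In the 13 blood island genes, median 0.77, CDH5, TEK and the globins HBZ, HBA1 and HBBR rose. PAX6 rose and SOX3 fell among 14 neural plate genes, median -0.13, and ASTL fell among 11 extraembryonic ectoderm genes, median -0.31. No gene was called in the lists of 17 organizer genes, 24 FGF, WNT and BMP feedback genes, 17 non-neural ectoderm genes and 14 tight junction genes, whose medians were -0.30, -0.26, 0.20 and -0.12. In these 4 lists limma gave 7, 10, 7 and 3 genes at an unadjusted p below 0.05, or 41.2%, 41.7%, 41.2% and 21.4%, against 25.4% of all genes. With signals floored at 40, or with the window arrays alone, 6 yolk sac genes rose, against 1.15% and 1.06% of all probe sets called. Those shares are over probe sets, not genes, and count rises and falls, so they are not on like terms with the 6. Under other settings as few as 2 yolk sac genes were called, and without any 1 array 2 to 4. The call of FGF8 was lost after quantile normalization, and the count of streak genes was also 0 without HH4 replicate 2, HH6 replicate 1, HH8 replicate 2 or HH9 replicate 2. Of the heart genes 2 were called without HH4 replicate 1, HH8 replicate 2 or HH9 replicate 2, and ASTL was not called without HH8 replicate 2. Without HH6 replicate 1 only 1 neural plate gene was called, and without HH6 replicate 2 there were 2 organizer genes, both lower.

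Since the best probe set of each gene was taken, the other probe sets of the members were examined. There were 58 members with 1 probe set and 42 with several, which gave 89 others. Of these, 65 from 36 members were above background on every window array, and 57 of the 65 had a score above 0 and 32 a score of at least 1. Over all tested probe sets with 1 symbol, 8.09% scored above 0. The 65 were picked by their signal on the window arrays, which also enters the score, and the 8.09% was not. These shares are therefore not on like terms and are a description only. Scores at or below 0 were found for 8 of the 65, from CDHR2, CLDN5, FAXDC2, KIAA1217, PDZK1P1, SLC27A2 and SLC6A12. The other CLDN5 probe set had its highest stage mean at HH38, 680, against 501 at HH9, and a score of -1.04. The other FAXDC2 probe set gave stage means of 4362 at HH1, 4931 at HH2 and 3884 at HH9. One KIAA1217 probe set gave 1032 at HH9 and 1160 at HH38. For TTR, the thyroid hormone carrier, the second probe set gave stage means of 28107 at HH4, 16891 at HH14 and 19263 at HH38, and scored 0.75. The probe set that placed TTR among the members had window signals of 346 to 703.

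APOB had 6 other probe sets with scores of 0.27 to 1.91. One of them gave stage means of 10606 at HH4, 25599 at HH9, 14366 at HH11, 162 at HH19 and 8070 at HH32. The 5 that were above background on every window array had log2 changes from HH4 and HH6 to HH8 and HH9 of 0.82 to 1.57, and 1 was called, with 1.54 ± 0.29 (SE, limma adjusted p = 0.00114). It was the only call among the 65, of which 50 had a change above 0.

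Several members lie side by side in the genome. In the RefSeq gene table of the assembly GRCg7b, 98 of the 100 members were found, all but PLB1 and FLRT1. APOA5 and APOA4 are neighbours, and a single gene lies between APOA4 and APOA1. HOXCDX1L and CDX4 are neighbours, and a single gene lies between LRP2 and ABCB11. The number of such neighbours among any 100 genes was not worked out. APOA4 and APOA5 differed in course, since APOA4 kept 475 and 421 at HH11 against 279 to 1273 in the window, whereas APOA5 had dropped to 232 and 186.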

How the data were processed

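The deposited intensity values are linear MAS5 signals per probe set, per the submitters' processing notes. The sources used here do not name its version or settings. Per the labels, a lipid tissue kit gave the RNA, which was labelled from its 3' end. Of 38535 probe sets, 37693 are for chicken. In the platform's annotation 27166 of these had 1 gene symbol, 177 several and 10350 none, and the last 2 kinds were left out of the rule.

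Signals were converted to log2. Probe sets at or above the 40th percentile of their array on at least 2 arrays were kept, 29600 in all, including all 100 members. A model with 15 stage means was fitted with limma 3.58.1 under R 4.3.3 (functions lmFit and eBayes, trended variance, 15 residual degrees of freedom), with Benjamini-Hochberg adjustment over all kept probe sets, and was tested on simulated data. Levels for the rule, HH11 and the later return used signals floored at 40 (Python 3.11.15, pandas 2.3.3, matplotlib 3.10.9). The number of arrays limits the precision.

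The members, gene lists and role groups were chosen with earlier results of these data known. Window levels against outer stages were not tested, because they chose the members. Members named with values were the 20 highest scores, those called within the window, the 5 highest and 5 lowest at HH11, members of a gene list, and members with a role group. ANKS4B, SLC28A2, RHOD and the disagreeing or brighter probe sets were named after their values were seen. For gene lists, the probe set with the highest mean signal stood for a gene. Replicate numbers showed no clear effect shared between stages: over 105 pairs of stages, correlations of replicate differences lay between -0.03 and 0.04. Such correlations cannot show whether arrays of the same number were handled together. Alternatives were other scaling, floors, filters, variance models, arrays left out, and the rule with other settings. Promoter sequences were not analysed here.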

Additional observations from a re-analysis of the deposited data

How the results depend on the processing

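Changes between HH4 with HH6 and HH8 with HH9 were called for 2 members in the fit of all arrays, for 6 with signals floored at 40, for 6 with the 8 window arrays alone and for 9 with no fold threshold. The F test gave 8 members, 21 with the floor, 22 with the window arrays alone and 4 without a variance trend. The single steps gave 0 members, 2 with the floor, 1 with the window arrays alone and 2 with no fold threshold. Leaving out each array in turn gave 2 to 3, 4 to 9 and 0 to 1. The larger counts with the floor and with the window arrays alone went with the smaller standard errors given above. Direction was followed gene by gene only for AGRP, CDH17, DPP4, ACSBG2, CUBN, MELTF, ABHD2, SPR, GPD1L2 and ASS1, and none of these reversed. Of all members, 78 to 82 had a change above 0 without any 1 array, against 80 with all arrays. A replicate block gave 2, 9 and 0 calls, though the numbers showed no clear effect shared between stages. ABHD2 missed the threshold with 75th percentile scaling (adjusted p = 0.052) and without a variance trend (0.0602).

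Under other settings the rule kept 91 members with a floor of 20, 92 with 80, 86 after quantile normalization, 88 with 75th percentile scaling, 85 and 90 from the replicate 1 or replicate 2 arrays alone, 89 with the probe set of highest mean signal per gene, 79 with HH11 among the outer stages, and 95 to 100 without any 1 array. The drop of at least 2-fold at HH11 held for 87 to 92 members, an HH11 level above the outer stages for 59 to 70, and the late return for 32 to 62, where a floor of 80 gave the fewest and a floor of 20 the most. With the 99th or 90th percentile as background, 25 or 40 members were above it on all outer arrays. With 2 pools a stage, signals near background limit all folds of dim members.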
